A study of Mus musculus with 2 samples.

Results

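The cytochrome P450 genes were examined in mouse iHFSC2 cells that carried an empty lentiviral vector or a hairpin against circSmad5. Members were all genes of the deposited table whose symbol is Cyp followed by a family number, subfamily letters and a gene number, which gave 38 of 22383 genes. Of these, 19 reached 20 counts in either library and are called measured below, and 19 stayed under that minimum. Throughout, paired values give the empty vector library first and the shcircSmad5 library second. Among the measured P450 genes, the keratinocyte gene Cyp2b19 had the largest estimated factor, 64.8-fold lower in the shcircSmad5 library with 127 and 2 counts. Its counting interval (17.6 to 541) overlaps that of Cyp4f39, which was 24.5-fold lower (4 to 1008). The order of these genes is thus not set by the counts. Both reached 20 counts in the empty vector library alone.

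iHFSC2 cells are immortalized stem cells of the mouse hair follicle. Both groups are puromycin-selected derivatives of it, infected with a lentivirus that carried either no insert or the hairpin, with puromycin from day 4 and stable lines at day 15. The libraries are strand-specific and depleted of ribosomal RNA. Each group had 1 library, so no difference below has a replicate check, no test was possible, and differences between selected lines and effects of the hairpin cannot be told apart. The comparison group carried an empty vector and not a control hairpin. circSmad5 is a circular RNA of the Smad5 gene, and no value is given for it, since counts per gene do not separate it from the linear transcript. Gene counts summed to 39261010 and 38382081. The labelled cell type was checked against its markers. The basal keratinocyte genes Krt5 (206538 and 224675 counts) and Krt14 (162982 and 226645) were abundant in both libraries. Of 6 markers of hair follicle stem cells, 5 were in the table and 3 were measured, and 2 of these were called lower by the rule given below. Dkk3 had 439 and 3 counts, 149-fold lower (50.8 to 727), and Krt15 had 253 and 79, 3.27-fold lower (2.53 to 4.26). Sox9 had 8829 and 5301 and was not called, while Lhx2 had 4 and 5 and Cd34 had 0 in both. The summed level of these markers was 248 and 137 CPM (counts scaled to library size). Markers of other cells were also read. Of 6 fibroblast markers Pdgfra was called lower (161 and 62 counts), with Col1a1, Dcn and Lum at 0 and a summed level of 4.19 and 1.68 CPM. Of 4 endothelial markers Pecam1 (81 and 27) and Kdr (33 and 4) were called lower, with Cdh5 at 0 and a summed level of 3.1 and 0.79 CPM. Of 6 sebocyte markers 5 were in the table and 3 were measured, and Scd1 was called lower (4146 and 1353). Fasn (42506 and 40675) and Plin2 (4197 and 3430) were not called. Under the minimum, Awat2 had 5 and 13 counts and Mc5r had 4 and 6. The summed level of the sebocyte markers was 1324 and 1159 CPM. No immune or melanocyte marker was called. The part of these marker differences in the results was not tested.

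Cytochrome P450 enzymes are haem proteins that insert an oxygen atom into lipids, steroids, vitamins and foreign compounds. Most sit in the endoplasmic reticulum and take electrons from the reductase Por, while the mitochondrial ones take them from ferredoxin. In skin they shape local levels of retinoic acid, vitamin D hormone and arachidonic acid products, and they make the very long hydroxylated lipids of the permeability barrier. Many P450 genes lie in clusters of close relatives, so reads can be hard to assign among them.

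The sequences shown are the regions just before the start of genes that lie close together and differed in ratio. Whether they have a part in the ratios was not tested. The 3 Cyp2b genes are shown because all had fewer counts in the shcircSmad5 library, and the 2 Cyp4f genes because they lie in 1 cluster and were called in opposite directions. Each is given 5′ to 3′ from RefSeq starts on GRCm38.p6, as the part of the 250 bases before the start that lies outside the GENCODE gene model. Capitals mark AGGTCA, the core site of nuclear receptors, or GCGTG, the core of the site of the aryl hydrocarbon receptor, on either strand.
Cyp2b19 (chr7:26756892-26757141, plus strand): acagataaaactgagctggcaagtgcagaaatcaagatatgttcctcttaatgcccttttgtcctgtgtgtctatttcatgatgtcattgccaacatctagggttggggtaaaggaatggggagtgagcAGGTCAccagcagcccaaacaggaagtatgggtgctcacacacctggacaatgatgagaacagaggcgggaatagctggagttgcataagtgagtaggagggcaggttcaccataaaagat
Cyp2b9 (chr7:26173159-26173408, plus strand): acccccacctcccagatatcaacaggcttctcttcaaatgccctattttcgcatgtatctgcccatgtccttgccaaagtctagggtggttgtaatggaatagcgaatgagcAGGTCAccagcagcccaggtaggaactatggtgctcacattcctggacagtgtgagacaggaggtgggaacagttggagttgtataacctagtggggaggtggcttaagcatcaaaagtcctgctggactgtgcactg
Cyp2b10 (chr7:25897408-25897619, plus strand): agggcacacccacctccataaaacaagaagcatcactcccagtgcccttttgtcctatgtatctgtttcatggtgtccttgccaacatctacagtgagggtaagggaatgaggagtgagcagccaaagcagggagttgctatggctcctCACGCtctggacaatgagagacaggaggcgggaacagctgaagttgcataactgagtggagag
Cyp4f13 (chr17:32947403-32947611, minus strand): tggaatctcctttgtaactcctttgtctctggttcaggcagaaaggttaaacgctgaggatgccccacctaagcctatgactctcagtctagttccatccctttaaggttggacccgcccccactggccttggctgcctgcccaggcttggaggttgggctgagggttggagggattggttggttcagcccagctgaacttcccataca
Cyp4f39 (chr17:32452473-32452722, plus strand): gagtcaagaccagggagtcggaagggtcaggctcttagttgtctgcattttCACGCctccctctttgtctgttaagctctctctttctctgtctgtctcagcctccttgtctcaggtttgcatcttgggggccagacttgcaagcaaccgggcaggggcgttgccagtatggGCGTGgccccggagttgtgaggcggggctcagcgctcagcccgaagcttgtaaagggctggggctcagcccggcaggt

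Of the 38 P450 genes, 31 had a start in the RefSeq table, as had 6 of the 7 genes called below. Cyp2b19 and Cyp2b9 share an unbroken run of 22 bases, tgagcAGGTCAccagcagccca, which holds AGGTCA. That motif begins 121 bases before the start of Cyp2b19 and 138 bases before that of Cyp2b9. Of 32851 promoter windows of 250 bases, 14% held AGGTCA. The longest run that Cyp2b19 shares with Cyp2b10 was 14 bases, and the letters AGGTCA were not in the Cyp2b10 window. Over the whole windows, Cyp2b19 was 62.7% identical to Cyp2b9 and 65.9% identical to Cyp2b10. GCGTG was found in 28.2% of all windows. It occurred at 2 places before Cyp4f39 and at no place before Cyp4f13, whose windows were 48.2% identical. These letters also stood 224 bases before Cyp4f16 of the same cluster, which was not called. They were found before other genes not called, such as Cyp1b1 and Cyp20a1. The Cyp2b10 window also held GCGTG at 2 places, of which the one 9 bases before the RefSeq start lies inside the GENCODE model and is not shown. TATAAA was in 12.4% of all windows and in none of the 5 shown. The match of these letters is a description of the windows only.

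Levels are compared between genes in the deposited FPKM, which divides counts by gene length and library total. In the empty vector library, 4 P450 genes held 72.6% of the summed FPKM of the family. These were Cyp1b1, which oxidizes oestrogens and aromatic hydrocarbons, at 20.3 FPKM (95% counting interval 19.7 to 20.9), Cyp3a13, a member of the drug and steroid oxidizing family 3, at 18.8 (18.1 to 19.6), the retinoic acid hydroxylase gene Cyp26b1 at 18.3 (17.7 to 18.9), and Cyp20a1, whose substrate is unsettled, at 17.8 (16.9 to 18.7). The intervals of Cyp3a13, Cyp26b1 and Cyp20a1 overlap, so their order is not set by these counts. In the shcircSmad5 library the leading gene was Cyp26b1 at 28.3 FPKM (27.6 to 29.1), followed by Cyp1b1 at 20.1 (19.5 to 20.7), Cyp20a1 at 14.2 (13.4 to 15) and Cyp2j6 at 5.72 (5.33 to 6.14). Cyp3a13 had 3.94 FPKM there (3.58 to 4.32), among Cyp4f16 at 4.43 and Cyp17a1 at 4.08, whose intervals overlap with its own. In each library 11 P450 genes reached 1 FPKM. The median over all measured genes was 5.54 and 5.5 FPKM, and 5 and 4 P450 genes lay above it. All intervals cover counting error only, since 1 library per group gives no spread between cultures. Reads that carry no molecular identifier may be copies of 1 molecule, so the intervals may be too narrow even for that error.

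**Figure D1:**
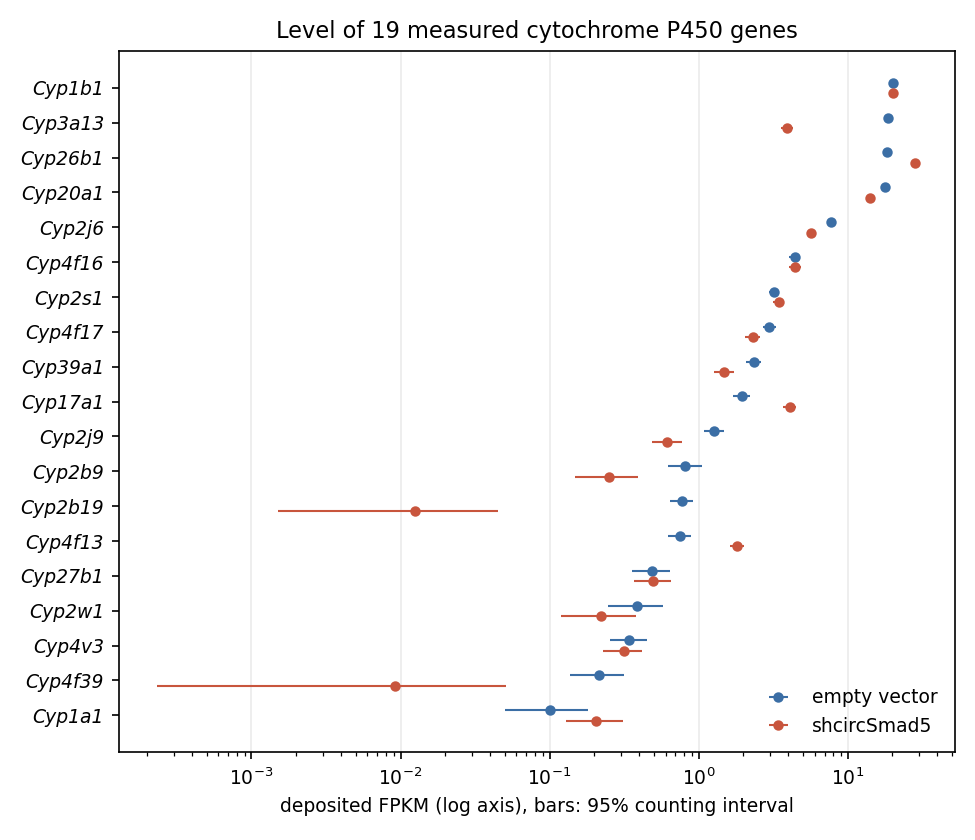
Deposited FPKM (log axis) of the 19 measured P450 genes in the empty vector library (blue) and the shcircSmad5 library (red), with 95% counting intervals as bars. Cyp1b1 lies near 20 FPKM in both libraries, while Cyp3a13 moves from 18.8 to 3.94 and Cyp2b19 from 0.776 to 0.0125.

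Each ratio sets the shcircSmad5 library over the control after TMM scaling. A measured gene was called higher or lower where it differed by at least 2-fold and had a 95% counting interval that excluded 1. Of the 19 measured P450 genes, 2 were called higher and 5 lower, and 12 were not called. That is 10.5% higher, beside 8.43% of all 13596 measured genes, and 26.3% lower, beside 6.24%. Of the 5 called lower, Cyp2b19, Cyp2b9 and Cyp4f39 reached the count minimum in the empty vector library alone. Their place among the measured genes thus rests on the library in which they are high. Cyp4f13 and Cyp17a1, called higher, reached it in each library. The same minimum was used for all genes. The median log2 ratio of the measured P450 genes was -0.39, beside -0.02 over all measured genes, and 14 of the 19 had a ratio below 1. Summed over all 38 genes, the family had 16103 and 15458 counts, a ratio of 0.94 (0.92 to 0.961). Without Cyp26b1, the member with the most counts, the ratio was 0.77 (0.75 to 0.791). After centring of every chromosome at the median of its genes, the median of the P450 genes was -0.10.

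**Figure D2:**
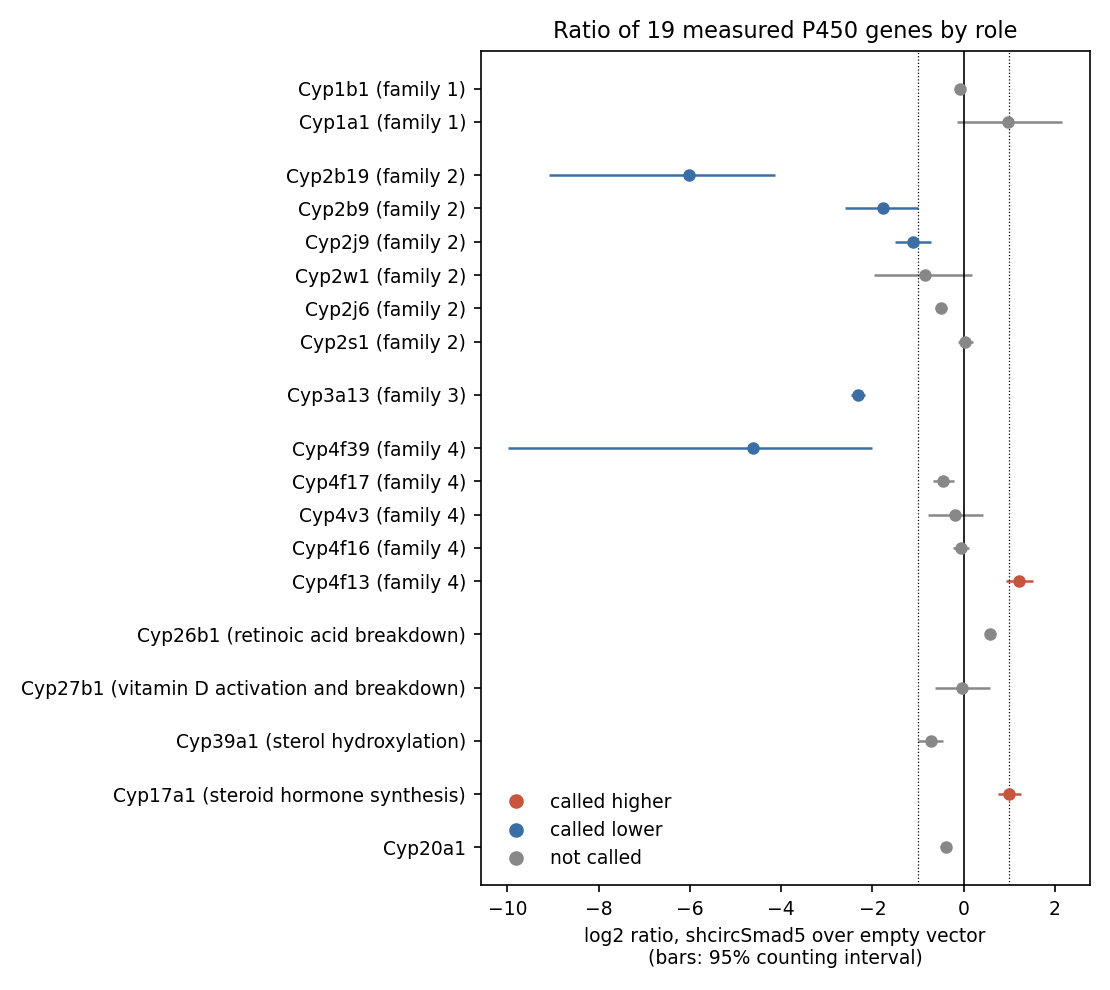
The log2 ratio of each measured P450 gene, shcircSmad5 over empty vector, grouped by role, with 95% counting intervals. Dotted lines mark 2-fold; Cyp2b19 (-6.02) and Cyp4f39 (-4.61) lie farthest to the left with wide intervals, and Cyp4f13 (1.22) and Cyp17a1 (1.00) are the genes called higher.

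Family 2 held 16 of the 38 genes and 6 of the measured ones, of which 3 were called lower and none higher. Over all measured genes, 6.24% were called lower. Of the 3, Cyp2b19 and Cyp2b9 reached the count minimum in the empty vector library alone. The call of the third, Cyp2j9, was lost with each chromosome centred. Cyp2b19 (ENSMUSG00000066704, GRCm38 chromosome 7, 26757142 to 26772630, plus strand) encodes an arachidonic acid epoxygenase of differentiated keratinocytes. Its 127 and 2 counts correspond to 0.776 and 0.0125 FPKM. The ratio was 64.8-fold lower with a wide counting interval, 17.6 to 541. Its relative Cyp2b9 (chromosome 7, 26173411 to 26210661), best known as a liver gene with higher levels in females, had 60 and 18 counts. That is 3.40-fold lower (1.98 to 6.13). Cyp2b10, the liver gene induced by phenobarbital, stayed under the minimum with 17 and 0 counts. With the 0 set to a floor of 3 counts the ratio was 5.79-fold lower, and the 95% limit of the count split lay at 4.21-fold. The 3 Cyp2b genes together had 204 and 20 counts, 10.4-fold lower (6.57 to 17.4), a sum formed after these values were seen.

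Part of the Cyp2b counts could belong to a neighbour of like sequence. Of the 50-base stretches in the transcripts of Cyp2b9, 11.2% also occur in transcripts of other genes, and for Cyp2b10 it was 8.70%, mostly other Cyp2b genes. For Cyp2b19 it was 1.85%. How the authors' counting treated reads that match several genes is something the sources used here do not state.

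Cyp2b19 is also a marker of granular keratinocytes, and of the 5 other markers of that layer 2 were measured. Ivl had 700 and 668 counts (-0.10, -0.25 to 0.06) and Krt10 had 52 and 61 (0.20, -0.36 to 0.76), and neither was called. Under the minimum, Lor had 18 and 16 counts, Flg had 4 and 0, and Krt1 had 0 in both libraries. With Cyp2b19 included, the summed level of the 6 markers was 23.5 and 19 CPM. In these bulk libraries, fewer cells of a type and less RNA per cell cannot be told apart. Of 5 hepatocyte markers, 3 were in the table, with Apoa1 at 0 in both libraries and a summed level of 0.312 and 0.051 CPM.

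The genes around the Cyp2b cluster showed no like difference. The nearest measured protein-coding genes beside Cyp2b19 are Cyp2b9 at 546 kb and Cyp2s1 at 940 kb on one side, and the oxygen sensor gene Egln2 at 386 kb on the other. Egln2 had 3011 and 2735 counts, a log2 ratio of -0.17, and Snrpa, a splicing factor gene at 414 kb, had -0.09. The receptor kinase gene Axl, next to Cyp2s1, had 31468 and 34742 counts (0.11). Among the 51 other measured genes within 1 Mb of the cluster, 9530053A07Rik was called higher and none was called lower, with a median of -0.03. Cyp2s1, an inducible P450 of skin and other epithelia that oxidizes retinoic acid, had 620 and 652 counts, a log2 ratio of 0.04 (-0.12 to 0.20). It lies at one end of the same cluster (chromosome 7, 25802475 to 25816913), and its interval does not overlap those of Cyp2b9 and Cyp2b19.

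**Figure D3:**
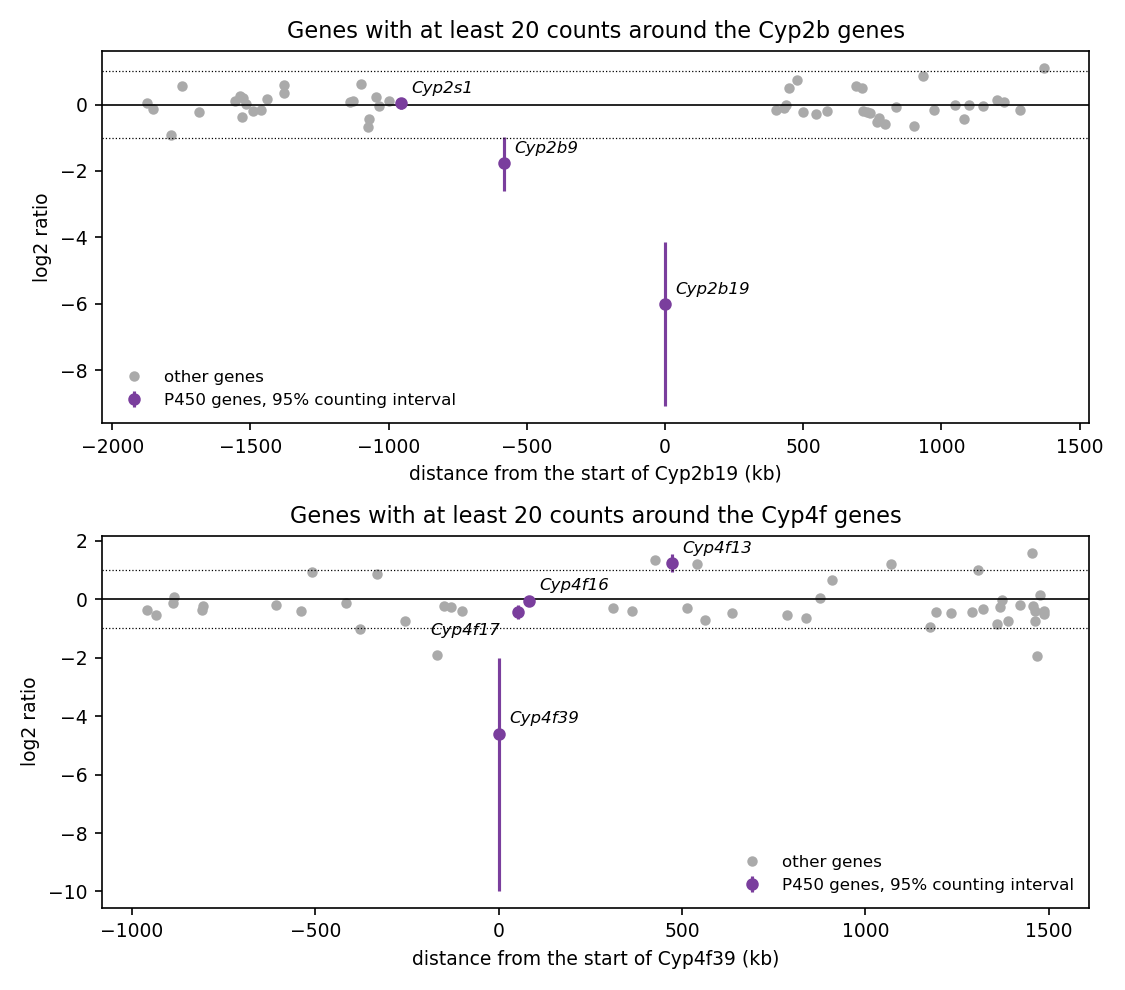
The log2 ratio of genes with at least 20 counts against distance (kb) from the start of Cyp2b19 (top) and of Cyp4f39 (bottom), with P450 genes in purple with 95% counting intervals and other genes in grey. Cyp2b9 and Cyp2b19 lie below genes near 0 on either side, and around the Cyp4f genes Cyp4f39 lies below and Cyp4f13 above Cyp4f16 and Cyp4f17.

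The Cyp2j genes encode enzymes that oxidize arachidonic acid, and both measured ones had fewer counts in the shcircSmad5 library. For Cyp2j9 there were 166 and 79 counts, a ratio 2.15-fold lower (1.63 to 2.84). Its neighbour Cyp2j6 was more abundant, at 7.73 and 5.72 FPKM, and was not called, with 1094 and 792 counts and a log2 ratio of -0.50 (-0.63 to -0.36). The intervals of the 2 genes do not overlap. Genes of their chromosome 4 had a median of -0.20, and Cyp2j9 centred at that median had -0.90 and was no longer called. Cyp2w1, a P450 of fetal gut and some tumours, had 23 and 13 counts (-0.85, -1.96 to 0.19), which does not set it apart from no difference.

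Cyp3a13 gave the called difference with the most counts. The family 3 enzymes oxidize many drugs and steroids, and Cyp3a13 is a mouse member that is also found outside the liver. It lies on chromosome 5, 137892932 to 137921619, on the minus strand. It had 2186 and 447 counts, or 56.9 and 11.4 CPM. The ratio was 4.99-fold lower with a narrow counting interval, 4.51 to 5.54. None of its 50-base stretches occurs in another gene's transcripts. The 10 nearest measured protein-coding genes, 5 on each side, were not called. Of these, Mepce (4840 and 3433 counts, -0.53) and Zscan21 (1362 and 963, -0.53) had the lowest ratios, and Zcwpw1, the nearest at 70.3 kb, had 30 and 47 counts (0.62). The other 2 genes of family 3, Cyp3a16 and Cyp3a57, had at most 4 counts in a library.

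Family 4 enzymes hydroxylate the far end of fatty acids and eicosanoids, and its 5 measured genes did not move together. Cyp4f39 is the mouse counterpart of human CYP4F22, which hydroxylates the very long fatty acids of skin acylceramides. Its counts were 24 and 1, 24.5-fold lower with an interval of 4.00 to 1008. Cyp4f13 lies in the same cluster (chromosome 17, 32924688 to 32947402) and went the other way, with 130 and 310 counts, 2.34-fold higher (1.90 to 2.89). Between them, Cyp4f16 had 532 and 522 counts (-0.06, -0.23 to 0.12) and Cyp4f17 had 376 and 283 (-0.44, -0.67 to -0.21). The intervals of Cyp4f39 and Cyp4f13 lie on opposite sides of those of both other genes. Cyp4f16 shares 17.4% of its 50-base stretches with other genes, among them Cyp4f13, Cyp4f17 and Cyp4f37, while Cyp4f13 shares 1.11% and Cyp4f39 none. Genes of chromosome 17 had a median log2 ratio of -0.38, and the 48 other measured genes within 1 Mb of the cluster had one of -0.36, with 5 called higher and 2 lower. Cyp4v3, the counterpart of the human eye disease gene CYP4V2, had 51 and 46 counts (-0.18, -0.79 to 0.42).

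Family 1 and the P450 genes of retinoid and vitamin D metabolism were not called. Cyp1b1 had 4656 and 4511 counts, a log2 ratio of -0.08 (-0.13 to -0.02), which turned to 0.31 with chromosome 17 centred. Cyp1a1, the classical target of the aryl hydrocarbon receptor, was rare, with 11 and 22 counts (0.97, -0.14 to 2.16). Cyp26b1, which breaks down retinoic acid in skin, had 3848 and 5822 counts and a log2 ratio of 0.57 (0.51 to 0.63). That is 1.48-fold more, under the 2-fold limit, and it was the largest gain in counts of any P450 gene. Its relative Cyp26c1 had 0 and 2 counts. Cyp27b1, which makes the hormonal form of vitamin D, had 49 counts in each library (-0.03, -0.63 to 0.57).

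Among the steroid and sterol enzymes, Cyp17a1 was called higher. It encodes the hydroxylase and lyase on the way to androgens and lies on chromosome 19, 46667165 to 46673172. Its counts were 212 and 434, or 1.95 and 4.08 FPKM, 2.01-fold higher (1.70 to 2.37). This is just past the limit, and with chromosome 19 centred the log2 ratio was 0.86 and the call was lost. Cyp11a1, which makes pregnenolone, a substrate of Cyp17a1, had 5 and 0 counts. Cyp11b1, a late enzyme of corticosteroid synthesis, had 12 and 0, with 18.1% of its 50-base stretches also in other genes. With the 0 of Cyp11b1 set to 3 counts its ratio was 4.08-fold lower, and the 95% limit of the count split lay at 2.84-fold. Cyp21a1 had 1 and 0. Cyp39a1, an oxysterol hydroxylase, had 281 and 174 counts and was not called (1.65-fold lower, 1.36 to 2.0). Its log2 ratio of -0.72 became -0.34 with chromosome 17 centred. Cyp46a1, the cholesterol hydroxylase of neurons, had 0 and 4. Cyp20a1 had 1594 and 1243 counts (-0.39, -0.50 to -0.28).

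The 19 genes under the minimum held 63 and 38 counts in all, with at most 17 for any gene. Of these, 6 were read in the empty vector library alone, 5 in the shcircSmad5 library alone and 6 in both, and 2 had 0 counts in both. Those with the most counts were Cyp2u1 (8 and 14), Cyp2b10, Cyp11b1, Cyp2c55 (5 and 3) and the pair Cyp2d26 and Cyp11a1 (each 5 and 0). A count of 0 allows up to 3 counts, so none of these values shows absence from a library. All 38 genes are annotated as protein-coding. Of the 19 measured ones, 17 have no exon under an exon of another gene, and 9 share no 50-base stretch with another gene.

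Among the genes that supply P450 enzymes with electrons and haem, no gene was called. None of 9 measured electron donor genes was called, and their median log2 ratio was -0.08. Por, the reductase of the endoplasmic reticulum, had 12729 and 12302 counts, a log2 ratio of -0.08. Cyb5b, a cytochrome b5, had 16387 and 14727 (-0.18), and Cyb5r3, its reductase, had 7673 and 9264 (0.24). None of 8 haem synthesis genes was called (median 0.11). Those with the most counts were Cpox (6168 and 6941), Fech (1826 and 1922) and Alas1, the first enzyme (1946 and 996). Alas1 was 1.99-fold lower and so just short of the limit. With each chromosome centred, 1 gene of this list was called lower. None of 4 haem breakdown genes was called, with Hmox1 at 3722 and 1959 counts (-0.96), Hmox2 at 2186 and 1767 and Blvra at 577 and 711. Of the epoxide hydrolases, which convert the products of epoxygenases, Ephx1 alone was measured, with 6817 and 5967 counts (-0.22).

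The next list holds genes that release and convert arachidonic acid, a substrate of the Cyp2b, Cyp2j and Cyp4f enzymes. Of 11 measured genes, 5 were called lower and none higher, and the median was -0.85. Over all measured genes 6.24% were called lower and 8.43% higher, with a median of -0.02. The lists differ in size, and no difference between them was tested. Pla2g4a, the phospholipase that frees arachidonic acid, had 934 and 195 counts, 4.89-fold lower (4.19 to 5.74). Ptgs2, an inducible cyclooxygenase, had 16280 and 5148 counts. The prostaglandin D synthase genes Hpgds (84 and 21 counts) and Ptgds (65 and 6) were 4.08-fold and 11.1-fold lower. Alox5ap, which presents arachidonic acid to lipoxygenase, had 23 and 2 counts and is named although the rule gives 4 genes of a list. Ptgds and Alox5ap reached the count minimum in the empty vector library alone. Of the genes not called, those with the most counts were Ptges3 (14452 and 15289), Ptges (9977 and 12440) and the constitutive cyclooxygenase gene Ptgs1 (11096 and 6305), which was 1.8-fold lower (1.74 to 1.85).

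Of 10 measured genes of receptors that control P450 genes and their partners, 1 was called lower and none higher, with a median of -0.28. This was Ahr, the aryl hydrocarbon receptor, with 621 and 314 counts, 2.02-fold lower (1.76 to 2.32), and the call was lost with total counts and with upper quartile scaling. Among 11 measured targets of that receptor, 2 were called lower and none higher, with a median of -0.13. Of all measured genes, 6.24% were called lower. The 2 targets were Aldh3a1 (392 and 43 counts) and the glutathione transferase gene Gsta1 (290 and 49). The 3 P450 genes of the list, Cyp1a1, Cyp1b1 and Cyp2s1, were not called. Nor was Tiparp, with 3618 and 4833 counts (0.39, 0.33 to 0.45). Of 11 retinoid genes, Dhrs9, a retinol dehydrogenase, was called higher with 779 and 2495 counts, 3.14-fold (2.89 to 3.4), and none was called lower. Of 14 measured acylceramide and lipoxygenase genes, Sptlc3 was called higher (66 and 690 counts) and none lower. Abca12, the lipid transporter of the barrier, had 25429 and 35398 counts (0.45). None of 10 steroid hormone genes outside the P450 family was called. Those with the most counts were Hsd17b12 (13218 and 9748), Hsd17b7 (2628 and 2569) and Tspo (2085 and 2031). Of 8 glucuronidation and sulfation genes, Ugt1a1 was called higher on 5 and 21 counts. The Ugt1a genes share exons, so its value is uncertain. Cyp51, a P450 of sterol synthesis that the name rule leaves out, had 13634 and 10958 counts and a log2 ratio of -0.35.

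**Figure D4:**
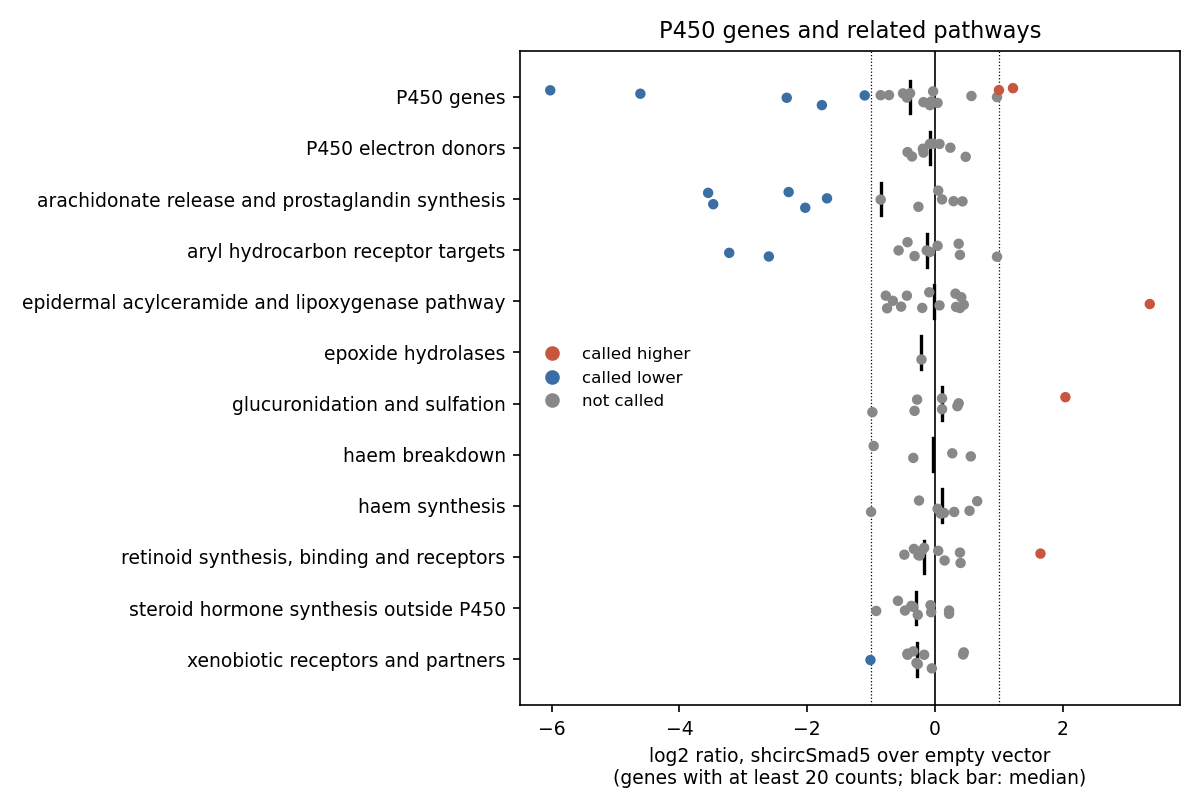
The log2 ratio, shcircSmad5 over empty vector, of measured genes in the P450 family and 11 related lists, with called genes in colour and the median of each list as a black bar. The P450 genes have a median of -0.39 with 5 genes called lower, and the arachidonate list has one of -0.85 with 5 genes called lower.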

How the data were processed

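RNA of 2 libraries, 1 per group, was read as gene values. Per the labels' protocols, ribosomal RNA was removed and strand-specific libraries were made. The submitters' processing notes name HISAT2, HTSeq 0.13.5, GRCm38 and GRCh38. The sources used here do not state the settings, the annotation or the counted strand. The authors deposited whole-number read counts and FPKM values per gene, per the file headers. Names tied all value columns to a library, with 0 left over.

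TMM scaling of the counts used edgeR 4.0.16 (R 4.3.3). Intervals are exact Clopper-Pearson (ratios) or exact Poisson (levels) 95% intervals, from SciPy 1.17.1. A count of 0 was set to 3 counts, and the 95% limit of the count split is given beside it. Where both libraries had 3 counts or fewer, no ratio was given. The size rule was tested on simulated data. Coordinates came from GENCODE M21 on GRCm38, where 22319 of the gene IDs were found. Shared 50-base stretches were searched in its transcripts on both strands. Alternatives covered scaling (total counts, DESeq2 1.42.0, upper quartile, chromosome centring), count minimum, fold limit, membership and pseudocount. Named are all measured members, the 5 other members with the most counts (6 with a tie), up to 4 called genes of each list or otherwise the 3 with the most counts, and the nearest measured genes. Members and lists were chosen with earlier results of these data known. The regions of 1 Mb, the Cyp2b sum, the printed promoters of Cyp2b10 and the Cyp4f genes, and single genes of lists outside the rule were chosen after values were seen.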

Additional observations from a re-analysis of the deposited data

How the results depend on the processing

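The call of Cyp2b19, Cyp2b9, Cyp3a13, Cyp4f39 and Cyp4f13 was kept under each of the 4 other scalings, and all 7 calls were kept under total counts, DESeq2 size factors and upper quartile scaling. With each chromosome centred, 1 of 19 P450 genes was higher and 4 were lower, beside 8.67% and 5.67% of all measured genes. The median log2 ratio of the P450 genes was then -0.10 and the summed ratio 1.02. The summed ratio was 0.982 with total counts, 0.983 with upper quartile scaling, 0.892 in deposited FPKM and 0.77 without Cyp26b1. The sum thus lay above 1 under chromosome centring and below 1 under the other scalings run. With a 3-fold limit 0 of 19 genes were higher and 4 lower. With at least 100 counts 3 of 13 were lower, and with at least 10 counts 7 of 22 were lower, through the bounds of Cyp2b10 and Cyp11b1. Both of these genes reached 10 counts in the empty vector library alone. The shares over all genes were not computed for these other limits, so these counts have no background to be read against. On log2(FPKM + 1), which shrinks low levels by construction, the median was -0.18 and Cyp2b19 had -0.81, short of 2-fold. Cyp1a1, with 11 and 22 counts, shows the limit of depth, since its interval spans both no difference and more than 2-fold. No paired analysis was possible because each group had 1 library.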
